A study of Mus musculus with 12 samples.

Results

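The heme and iron handling genes described here are 10 mouse genes that import, break down and make heme, or store, import and export iron: Hmox1, Slc48a1, Blvra, Blvrb, Alas1, Fth1, Ftl1, Hamp, Slc40a1 and Tfrc. They were chosen by name, as every probe set that the array platform assigns to 1 of these symbols, which gave 22 of the 22690 probe sets. Of the 10 genes, 9 passed the filter on low values and entered the test, among 8469 tested genes of 12393 with a probe set of their own. Ftl1 was the exception, because its 3 probe sets are also assigned to a pseudogene. The samples were whole livers of adult male C57BL6/J mice, 8 weeks old, hybridised to 1 Affymetrix array each. A first group of 3 mice carried a conditional-null Txnrd1 allele disrupted by albCre, labelled txnrd1 liver-null, and received 100 mg/kg acetaminophen (APAP, the analgesic paracetamol) by intraperitoneal injection. A second group of 3 wild-type mice received the same dose, and groups of 3 liver-null and 3 wild-type mice received saline. All livers were taken 8 h after the injection. Txnrd1 encodes the cytosolic thioredoxin reductase. The albumin promoter that drives albCre is active in hepatocytes, so that other liver cells keep the gene. Whether the wild-type mice carried the unrecombined allele or Cre is not given in the sources used here.

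Heme is built in mitochondria and cytosol, starting with the aminolevulinate synthases, and is taken apart by heme oxygenases into iron, carbon monoxide and biliverdin, which biliverdin reductases turn into bilirubin. The freed iron is kept in ferritin, a shell of heavy and light chains, or leaves the cell through ferroportin, whose removal from the membrane is triggered by the liver hormone hepcidin. Several of these genes, among them the heme oxygenase Hmox1 and the ferritin chains, are known targets of the oxidant-responsive factor NRF2. The levels below are log2 RMA values, in which a difference of 1 is a doubling. Levels of different probe sets are not set against each other as amounts of RNA. The summed level of a marker list is the log2 of the sum of unlogged values, so that brighter probe sets weigh more.

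Array medians lay between 2.91 and 2.99 and pairwise correlations between 0.986 and 0.998. By their upper quartiles the arrays fell into a first set of 8, from 5.73 to 5.85, and a second set of 4, from 5.49 to 5.58, separated by a gap of 0.142. The second set held 1 array of each group: mouse 17 of the APAP-treated and mouse 16 of the saline-treated livers labelled liver-null, and mice 14 and 10 of the wild-type groups. Mouse numbers here are the endings of the sample titles, taken as separate mice although each title also names mouse 8. The main Txnrd1 probe set was higher, not lower, in the livers labelled liver-null, at 10.26 to 10.58, against 9.43 to 9.81 in wild-type livers (log2 difference 0.75, SE 0.0877, adjusted p = 0.000858, limma). With the mean of all 3 Txnrd1 probe sets the difference was 0.192 (adjusted p = 0.0867). The other 2 probe sets read 1.326 to 2.061, below the 40th percentile of every array, which was 2.42 or more. Where the probes of the main probe set lie relative to the deleted part was not analysed here. Its level therefore does not check the genotype labels, and every direction below is given for the livers as labelled. The summed level of 9 hepatocyte markers was alike in both genotypes, 15.99 to 16.08 in livers labelled liver-null and 16.03 to 16.11 in wild-type livers.

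Of the 9 tested members, 3 passed the test over both treatments, each higher in livers labelled liver-null, and none was called lower. They were Slc48a1, Blvrb and Fth1: a heme importer, a biliverdin reductase and the heavy chain of ferritin. A gene was called where the limma adjusted p was under 0.05 (Benjamini-Hochberg over all tested genes, all 12 arrays in 1 fit). In saline-treated livers 1 member was called, where 0.638% of all tested genes were called, 0.366% higher and 0.272% lower. After APAP 2 members were called, against 0.768% of all tested genes, 0.579% higher and 0.189% lower. Over both treatments 3 members were called, against 4.46% of all tested genes, 2.28% higher and 2.18% lower. The median log2 difference of the 9 members was 0.211 with saline, 0.324 after APAP and 0.263 over both treatments, while the medians of all tested genes were -0.0278, -0.0027 and -0.0124. The 2 single-treatment comparisons use different mice, whereas the comparison over both treatments pools them and is not independent of either. In bulk tissue a change in the number of cells of a type and a change in RNA per cell cannot be told apart.

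**Figure D1:**
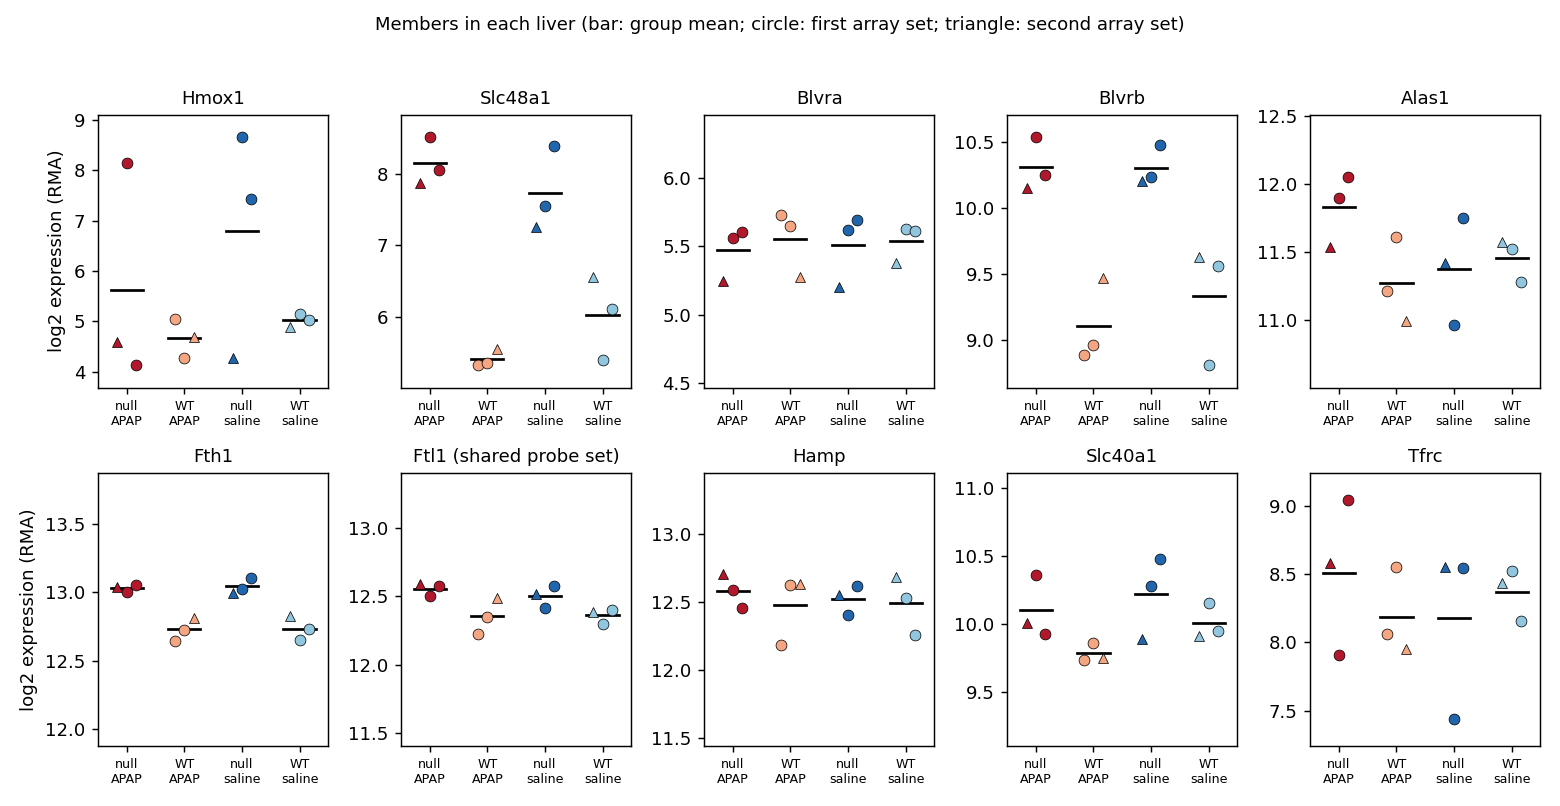
Level of each of the 10 genes (log2 RMA value, y axis, range set per panel) in each liver by group (x axis; null, livers labelled liver-null; WT, wild-type); each point is 1 mouse, bars are group means, circles are the first array set and triangles the second. Slc48a1, Blvrb and Fth1 do not overlap between genotypes, and Hmox1 is high in 3 of 6 livers labelled liver-null.

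Slc48a1 encodes HRG1, a transporter that brings heme out of endosomes and lysosomes into the cytosol. In APAP-treated livers labelled liver-null its main probe set read 8.51, 8.06 and 7.88, against 5.33, 5.36 and 5.55 in APAP-treated wild-type livers. In saline-treated livers labelled liver-null it read 7.54, 8.39 and 7.26, against 5.40, 6.11 and 6.56 in saline-treated wild-type livers. Each of the 6 livers labelled liver-null lay above each of the 6 wild-type livers. The gene was 6.66-fold higher after APAP (log2 difference 2.74, 95% interval 2.04 to 3.43, adjusted p = 0.00309, limma). With saline it was 3.27-fold higher (1.71, 1.01 to 2.41, adjusted p = 0.0391). Over both treatments the difference was 2.22 (SE 0.225, adjusted p = 0.000317), the 16th of 8469 by the size of its moderated t statistic. A second Slc48a1 probe set separated the genotypes too, at 6.46 to 7.78 in livers labelled liver-null and 4.53 to 5.10 in wild-type livers. In a fit of all single probe sets it differed by 2.47 over both treatments (SE 0.215, adjusted p = 0.000255). The saline call was lost without mouse 4 or mouse 5 of the livers labelled liver-null or mouse 8 or mouse 9 of the wild-type livers, with differences of 1.38 to 1.80 and adjusted p from 0.0997 to 0.161.

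Blvrb encodes biliverdin reductase B, which also reduces flavins with NADPH. Its level was 10.53, 10.25 and 10.15 in APAP-treated livers labelled liver-null, against 8.89, 8.97 and 9.47 in APAP-treated wild-type livers. With saline it was 10.23, 10.47 and 10.20 in livers labelled liver-null, against 8.82, 9.56 and 9.63 in wild-type livers. The genotypes did not overlap under either treatment, and the livers labelled liver-null spread less (SD 0.157, n = 6) than the wild-type livers (SD 0.370, n = 6). Blvrb was 2.29-fold higher after APAP (log2 difference 1.20, 95% interval 0.707 to 1.69, adjusted p = 0.0377, limma) and 2.12-fold higher over both treatments (1.08, SE 0.158, adjusted p = 0.00343). The saline difference was 0.97 (0.477 to 1.46) and missed the threshold, with an adjusted p of 0.0796. The APAP call was lost without any 1 of the 3 livers labelled liver-null, or without mouse 12 or 13 of the wild-type livers, with differences of 1.09 to 1.28 and adjusted p from 0.0568 to 0.186.

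Blvra, which encodes the other biliverdin reductase, was measured by a single probe set. Its level was 5.56, 5.61 and 5.24 in APAP-treated livers labelled liver-null, against 5.73, 5.65 and 5.28 in APAP-treated wild-type livers. With saline it was 5.62, 5.70 and 5.20 in livers labelled liver-null, against 5.63, 5.61 and 5.38 in wild-type livers. In every group the lowest liver was the one on the second array set, and the genotypes overlapped. The difference over both treatments was -0.06, with a 95% interval from -0.321 to 0.209. The interval excludes a change as large as that of Blvrb in either direction.

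The start regions of Blvrb, which was higher, of Blvra, which was not called, and of Fth1, described with the ferritins, are shown because NRF2 binds antioxidant response elements in many genes of this kind. Each run is the 250 bases before a RefSeq transcript start of GRCm38.p6, on the plus strand, 5′ to 3′. Capitals mark a match, on either strand, to 1 of 2 spellings of the element's core, TGACNNNGC or TGAGNNNGC, where N is any base. The spans are chr7:27447728-27447977 for Blvrb, chr2:127070407-127070656 for Blvra and chr19:9982396-9982645 for Fth1.
Blvrb: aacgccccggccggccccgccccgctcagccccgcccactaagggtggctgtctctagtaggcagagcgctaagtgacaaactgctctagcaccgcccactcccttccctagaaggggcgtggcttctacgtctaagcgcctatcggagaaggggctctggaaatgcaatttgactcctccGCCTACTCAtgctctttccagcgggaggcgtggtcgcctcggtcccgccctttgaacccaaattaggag
Blvra: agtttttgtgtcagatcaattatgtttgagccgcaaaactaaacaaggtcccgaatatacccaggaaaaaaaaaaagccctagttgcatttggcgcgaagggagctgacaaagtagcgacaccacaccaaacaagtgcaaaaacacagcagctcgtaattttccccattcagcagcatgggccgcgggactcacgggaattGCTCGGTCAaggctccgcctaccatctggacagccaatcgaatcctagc
Fth1: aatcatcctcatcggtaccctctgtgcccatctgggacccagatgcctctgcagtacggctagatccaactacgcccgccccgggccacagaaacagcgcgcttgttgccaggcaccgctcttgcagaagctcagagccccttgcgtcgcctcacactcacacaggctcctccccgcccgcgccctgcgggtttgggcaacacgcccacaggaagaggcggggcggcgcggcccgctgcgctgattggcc

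The Blvrb match is to TGAGNNNGC on the minus strand and begins 69 bases before the start, and the Blvra match is to TGACNNNGC on the minus strand and begins 49 bases before it. Of 32851 such windows in the RefSeq table, 14.4% hold TGAGNNNGC, 10.2% hold TGACNNNGC and 23.0% hold either. In all, 7 of the 10 genes had a window in the table, with 11 windows among them. The other 9 windows, both of Fth1 and a second of Blvrb included, held neither spelling. The 3 genes without a window are Hmox1, Slc48a1 and Slc40a1. A match was thus present at a gene that was higher and at a gene that was not called, and it says nothing by itself about binding.

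Hmox1, the inducible heme oxygenase, was high in some livers labelled liver-null and not in others. With APAP it read 8.14 in mouse 2, 4.14 in mouse 3 and 4.58 in mouse 17 of the livers labelled liver-null, against 5.06, 4.28 and 4.69 in wild-type livers. With saline it read 8.65 in mouse 4, 7.43 in mouse 5 and 4.28 in mouse 16 of the livers labelled liver-null, against 5.14, 5.02 and 4.89 in wild-type livers. The 3 high livers lay above every wild-type liver, while the other 3 lay within or just below the wild-type range of 4.28 to 5.14. The SD of Hmox1 was 2.09 across the 6 livers labelled liver-null and 0.319 across the 6 wild-type livers. The log2 difference was 1.77 with saline (95% interval -0.615 to 4.15, adjusted p = 0.594, limma) and 0.94 after APAP (-1.44 to 3.33, adjusted p = 0.958). Over both treatments it was 1.36 (SE 0.768, adjusted p = 0.424), and no call was made in any of the alternatives. Without mouse 2 the APAP difference was -0.31. The gene has 1 probe set on this array, so that no second probe set was available for these values.

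**Figure D2:**
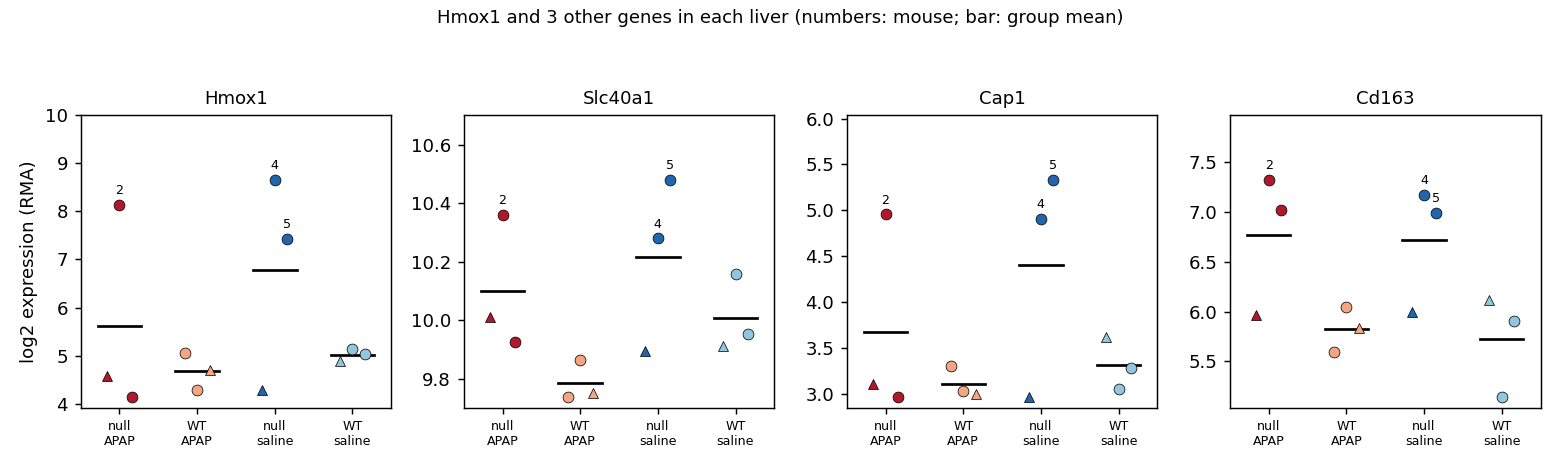
Level of Hmox1, Slc40a1, Cap1 and Cd163 (log2 RMA value, y axis, range set per panel) in each liver by group (x axis; null, livers labelled liver-null; WT, wild-type); points are mice, bars group means, circles the first array set, triangles the second, and numbers mark the mice with high Hmox1. In mice 2, 4 and 5 Hmox1 reads 7.43 to 8.65 and Slc40a1 10.28 to 10.48, above the other livers on both.

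The pattern of Hmox1 over the 12 arrays was nearest to those of Cap1, an actin regulator (Pearson r = 0.946), Grpel2, a mitochondrial co-chaperone (r = 0.935), and Tent2, a poly(A) polymerase (r = 0.916). Cap1 read 4.96, 4.91 and 5.33 in mice 2, 4 and 5 and 2.96 to 3.62 in the other 9 livers. Grpel2 read 6.23, 5.99 and 5.63 in these mice and 4.71 to 5.41 in the others. None of the 3 genes was called between genotypes over both treatments, with adjusted p of 0.355 for Cap1, 0.645 for Grpel2 and 0.463 for Tent2. These correlations describe 12 arrays that share 1 normalization, and the 3 most alike of all other tested genes were taken for each member.

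Markers of other cells were read beside Hmox1, since macrophages express it when they clear red cells. The summed level of 12 Kupffer cell and macrophage markers was 11.65, 11.43 and 11.54 in mice 2, 4 and 5, against 11.18, 10.59 and 10.83 in mice 3, 17 and 16, the other livers labelled liver-null, and 11.06 to 11.58 in wild-type livers. Mice 2, 4 and 5 thus had the highest sums of the livers labelled liver-null and overlapped the wild-type livers. For 9 of the 12 markers these mice read above the other 3 livers labelled liver-null, and for 3 of the 12, Marco, Adgre1 and Lyz2, above all other 9 livers. Marco, a scavenger receptor of macrophages, read 5.295, 7.38 and 6.023 in mice 2, 4 and 5 and 2.131 to 4.864 in the other 9 livers. Between genotypes 0 of the 12 markers were called in the main fit. Cd163, the macrophage receptor for hemoglobin bound to haptoglobin, read 7.32, 7.17 and 6.99 in mice 2, 4 and 5, and also 7.02 in mouse 3, whose Hmox1 was low. The acute phase sum was highest in mouse 4, at 16.74, and next in a wild-type liver, at 16.59. The neutrophil sum, over 5 markers of which 3 were tested, was highest in mouse 4 too, at 6.65, against 4.82 to 5.88 in wild-type livers. Mice 2, 4 and 5 were all on the first array set, which also held mouse 3 and 4 wild-type livers with low Hmox1. The part of these cells or array sets in the Hmox1 values was not tested.

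Alas1, the first and rate-setting enzyme of heme synthesis in liver, was not called in any comparison of the main fit. In an alternative fit with array weights it passed over both treatments (log2 difference 0.41, adjusted p = 0.0467, limma). It read 11.90, 12.05 and 11.54 in APAP-treated livers labelled liver-null, against 11.21, 11.61 and 11.00 in APAP-treated wild-type livers. With saline it read 10.96, 11.75 and 11.42 in livers labelled liver-null, against 11.52, 11.28 and 11.57 in wild-type livers. The groups overlapped under both treatments. The log2 difference was 0.56 after APAP (95% interval 0.0799 to 1.04, adjusted p = 0.415, limma) and -0.08 with saline (-0.56 to 0.396, adjusted p = 0.939). A second probe set gave 0.297 after APAP (SE 0.214) and -0.184 with saline (SE 0.214).

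By its main probe set Fth1, the ferritin heavy chain, which oxidises iron for storage, was slightly higher in the livers labelled liver-null. It read 13.004, 13.054 and 13.039 with APAP and 13.027, 13.109 and 12.997 with saline in livers labelled liver-null. The wild-type livers read 12.643, 12.727 and 12.815 with APAP and 12.650, 12.730 and 12.824 with saline. All 6 livers labelled liver-null lay above all 6 wild-type livers, with an SD of 0.0405 against 0.0776. Over both treatments Fth1 was 1.24-fold higher (log2 difference 0.31, SE 0.0694, adjusted p = 0.0296, limma). The differences with saline, 0.31 (adjusted p = 0.202), and after APAP, 0.30 (adjusted p = 0.265), were of the same size but did not pass the test alone. The call over both treatments was kept only without mouse 16 of the livers labelled liver-null or without mouse 14 or mouse 10 of the wild-type livers. Without any 1 of the other 9 mice the difference was 0.29 to 0.31, at adjusted p from 0.0544 to 0.0819. A second Fth1 probe set, of the kind that can detect several related transcripts, differed by 0.20 (SE 0.0703, adjusted p = 0.236 over probe sets, limma). On it the genotypes overlapped, at 11.91 to 12.18 in livers labelled liver-null and 11.72 to 11.97 in wild-type livers.

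Ftl1, the ferritin light chain, had no probe set of its own, since all 3 are also assigned to Ftl1-ps2, so its values may hold signal of a near-identical copy. The brightest read 12.50, 12.57 and 12.59 with APAP and 12.41, 12.58 and 12.52 with saline in livers labelled liver-null. Wild-type livers read 12.22, 12.35 and 12.49 with APAP and 12.30, 12.40 and 12.38 with saline. In the fit of single probe sets its difference over both treatments was 0.17 (SE 0.0639, adjusted p = 0.269). The second probe set differed by 0.05 (SE 0.0566, adjusted p = 0.903) and the third, the dimmest, by 0.45 (SE 0.137, adjusted p = 0.148). None of the 3 passed the test in any comparison of genotypes.

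**Figure D3:**
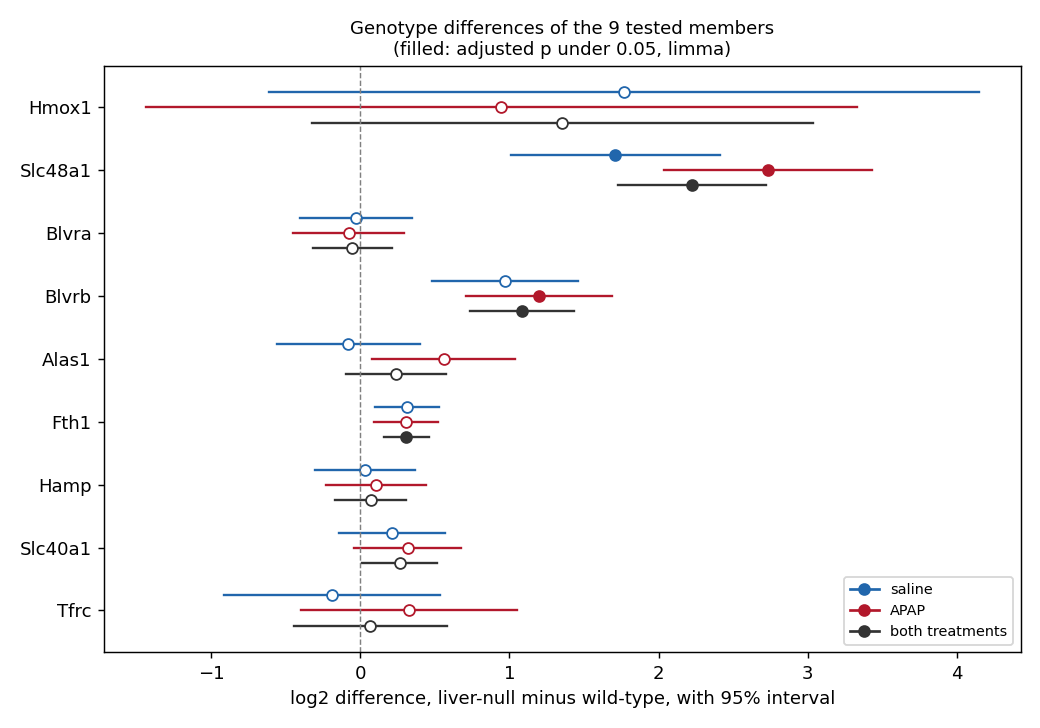
Log2 difference, livers labelled liver-null minus wild-type (x axis, with 95% interval), of the 9 tested members (y axis) with saline, after APAP and over both treatments; filled points passed the test at an adjusted p under 0.05. Slc48a1 is filled in all 3 comparisons, Blvrb in 2 and Fth1 in 1, and the Hmox1 interval with saline runs from -0.615 to 4.15.

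The genes of iron import, export and its hormonal control were not called in the main fit. Tfrc, the transferrin receptor that takes up iron, ran from 7.44 to 9.04 in livers labelled liver-null and from 7.95 to 8.55 in wild-type livers. Its log2 difference was -0.19 with saline, 0.32 after APAP and 0.07 over both treatments (95% interval of the last -0.448 to 0.578, adjusted p = 0.941, limma). The lowest Tfrc level was in mouse 4 with saline, at 7.44, and the lowest among the APAP-treated livers labelled liver-null was in mouse 2, at 7.90, which are the 2 livers with the highest Hmox1. Mouse 5, the third liver with high Hmox1, had a Tfrc level of 8.546, at the upper end of the wild-type range. The other 5 Tfrc probe sets, 3 of them hybridisation controls of the array, stayed between 1.40 and 2.21, below the filter on low values.

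Slc40a1, which encodes ferroportin, the iron exporter, read 10.36, 9.93 and 10.01 in APAP-treated livers labelled liver-null, against 9.74, 9.86 and 9.75 in wild-type livers. With saline it read 10.28, 10.48 and 9.89 in livers labelled liver-null, against 10.16, 9.95 and 9.91 in wild-type livers. The APAP-treated groups did not overlap, and the saline-treated ones did. Its difference over both treatments was 0.26 (SE 0.115, unadjusted p = 0.0422, adjusted p = 0.271, limma), and its second probe set gave 0.50 (SE 0.183, adjusted p = 0.252 over probe sets). In an alternative fit with array weights it passed with saline (0.417, adjusted p = 0.0381, limma) and over both treatments (0.326, adjusted p = 0.0379). Across the 12 arrays Slc40a1 and Hmox1 had a Pearson r of 0.831, given as a description of arrays in which mice 2, 4 and 5 were high on both.

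Hamp, the gene of hepcidin, spread over 0.521 log2 units across all 12 livers, beside 0.466 for Fth1 and 0.523 for Blvra, the 3 narrowest ranges among the 9 tested members. It ran from 12.41 to 12.71 in livers labelled liver-null and from 12.19 to 12.68 in wild-type livers. The difference over both treatments was 0.07 (95% interval -0.17 to 0.306, adjusted p = 0.843, limma), and the second Hamp probe set gave 0.09. The related gene Hamp2 has probe sets of its own and differed by 0.312 (adjusted p = 0.662). Whether the probes tell the 2 genes apart was not tested.

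**Figure D4:**
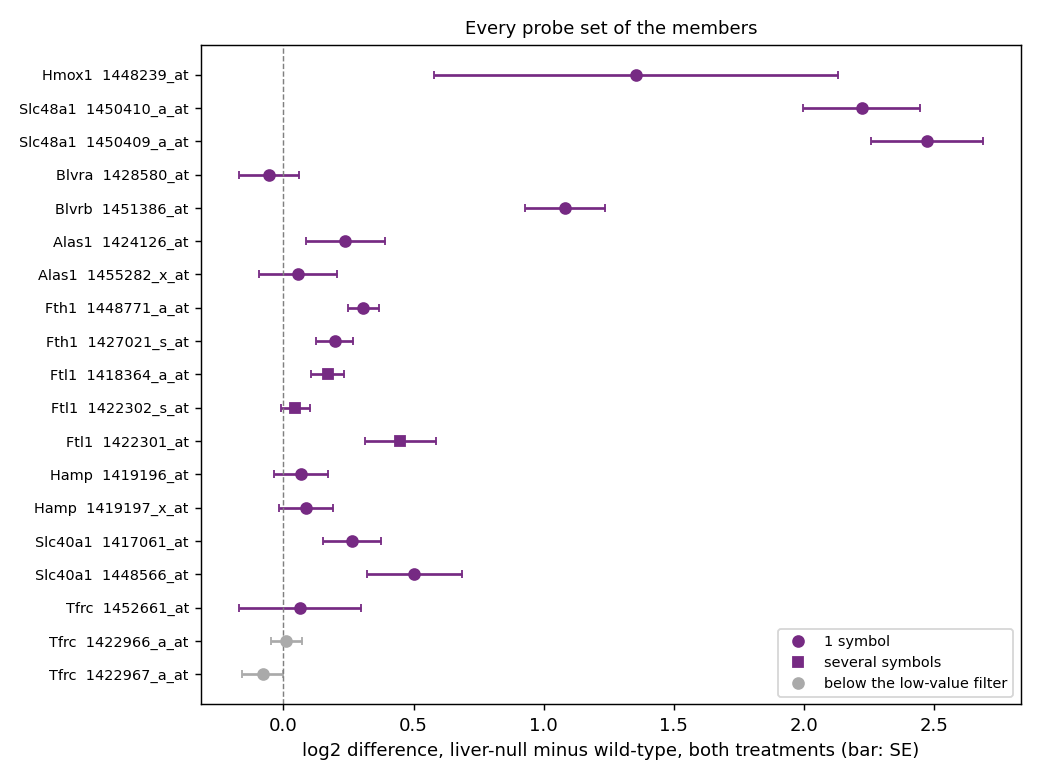
Log2 difference over both treatments, livers labelled liver-null minus wild-type (x axis, bars are SE), of the 19 probe sets of the 10 genes that are not array controls (y axis, gene and probe set); squares are probe sets shared with other symbols and grey points lie below the filter on low values. Both Slc48a1 probe sets lie above 2, the 2 Fth1 probe sets at 0.31 and 0.20, and both Hamp probe sets within 0.1 of 0.

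Counting groups whose livers did not overlap, with those labelled liver-null higher, gave 3 members with saline (Slc48a1, Blvrb and Fth1), 4 after APAP (these and Slc40a1) and 3 over both treatments. The same held for 6.48%, 6.97% and 2.27% of all tested genes. No member lay wholly below the wild-type livers in these comparisons.

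After APAP, compared with saline, no member was called in either genotype, as was true of all tested genes: the share called was 0% within each genotype, over both genotypes and in the interaction of genotype and APAP. At an unadjusted p under 0.05, limma gave 59 genes in livers labelled liver-null, 143 in wild-type livers, 102 over both genotypes and 109 in the interaction. The only member among them was Slc48a1 in the interaction. Its level differed by 0.42 between APAP and saline in livers labelled liver-null and by -0.61 in wild-type livers. The interaction was 1.03 (95% interval 0.0408 to 2.02, unadjusted p = 0.0426, adjusted p = 0.999, limma). The second Slc48a1 probe set gave smaller differences, 0.205 and -0.292 in the same order, with an interaction of 0.498 (SE 0.43). Alas1 differed by 0.45 in livers labelled liver-null and by -0.19 in wild-type livers (interaction 0.64, -0.036 to 1.31). Hmox1 differed by -1.16 in livers labelled liver-null, with an interval from -3.55 to 1.22, and by -0.34 in wild-type livers. Blvrb differed by 0.005 in livers labelled liver-null, with an interval from -0.486 to 0.495, and by -0.23 in wild-type livers. The genotype comparisons with saline and the APAP comparisons share the saline-treated groups. Among the 9 members the largest APAP difference in either direction was 1.16 in livers labelled liver-null and 0.611 in wild-type ones.

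The size of the genotype differences was not the same in the 2 array sets. Over both treatments Slc48a1 differed by 2.58 in the first set, with 2 livers a group, and by 1.51 in the second set, with 1 liver a group. Blvrb differed by 1.31 and 0.62 in these sets, and Fth1 by 0.36 and 0.20, so that each was higher in both. With saline the Slc48a1 difference was 2.21 in the first set and 0.70 in the second. Hmox1 differed by 2.21 in the first set and by -0.36 in the second, and Tfrc by -0.09 and 0.37. The array set as a covariate in the fit made Blvrb pass with saline as well (adjusted p = 0.044, limma).

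The 3 called members followed each other over the 12 arrays, with a Pearson r of 0.962 for Blvrb and Slc48a1, 0.943 for Fth1 and Slc48a1 and 0.957 for Fth1 and Blvrb. Since all 3 separate the genotypes, these values describe that separation. Outside the group, the patterns nearest to Slc48a1 were those of Lgals1 (r = 0.974), Cbr1 (r = 0.971) and Tkt (r = 0.970), a galectin, a carbonyl reductase and the transketolase of the pentose phosphate pathway. Blvrb was nearest to Cbr3 (r = 0.982), a second carbonyl reductase, Fitm1 (r = 0.976), a lipid droplet gene, and Nqo1 (r = 0.973), a quinone reductase. Fth1 was nearest to Nqo1 (r = 0.975), Ephx1 (r = 0.968), the microsomal epoxide hydrolase, and Aox1 (r = 0.966), an aldehyde oxidase. Cbr3 averaged 10.26 in livers labelled liver-null and 4.27 in wild-type livers, and Nqo1 6.73 and 3.47 in the same order. The members that were not called had other neighbours: Washc3 for Slc40a1 (r = 0.958), Scrn3 for Tfrc (r = 0.920), Med7 for Blvra (r = 0.967), Cspp1 for Alas1 (r = 0.890) and Pla2r1 for Hamp (r = 0.834). Genes chosen for likeness to a member that separates the genotypes tend to separate them too, so this contrast largely follows from the calls.

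A wider view came from 9 lists of heme and iron genes, with 75 tested genes that are not among the 10. With saline 1 of the 75 was called higher and 2 lower in livers labelled liver-null, and after APAP 1 higher and 1 lower. Over both treatments 5 were called higher and 4 lower. Of all tested genes, 0.366% were called higher and 0.272% lower with saline, and 0.579% and 0.189% after APAP. Over both treatments these shares were 2.28% and 2.18%, which also stand beside the counts of each list below. The median log2 difference of the 75 over both treatments was 0.011, beside -0.0124 for all tested genes. None of the 75 was called in the APAP comparisons.

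**Figure D5:**
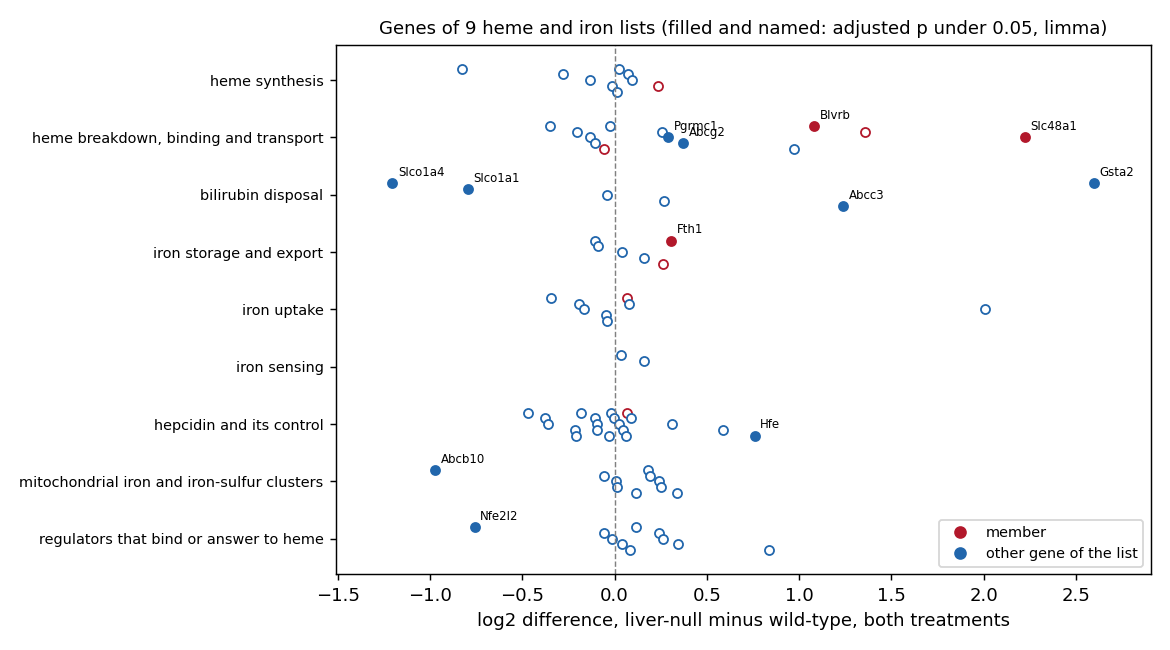
Log2 difference over both treatments, livers labelled liver-null minus wild-type (x axis), of the tested genes of 9 heme and iron lists (y axis; vertical offsets within a list only separate points); filled, named points passed the test at an adjusted p under 0.05, red points are members. Gsta2, at 2.60, and Slc48a1, at 2.22, lie farthest right and Slco1a4, at -1.20, farthest left.

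In heme synthesis 0 of 8 tested genes outside the group passed in either direction over both treatments. The largest differences were those of Alas2, the erythroid aminolevulinate synthase, at -0.83 (adjusted p = 0.0676, limma), and of Alad, the enzyme of the second step, at -0.28 (adjusted p = 0.0949). With the array set as a covariate the 2 passed, at 0.00984 for Alas2 and 0.0318 for Alad. Alas2 ran from 6.93 to 7.98 in livers labelled liver-null and from 8.01 to 8.995 in wild-type livers. Alas2 also made up most of the summed level of 10 erythroid markers, 6 of them tested. The sum was 7.46 to 8.26 in livers labelled liver-null and 8.26 to 9.14 in wild-type livers. The globin probe sets with 1 symbol, of Hba-a1, Hba-a2 and Hbb-b2, lay between 1.81 and 3.72 on every array. Hbb-b1 and Hbb-bs, also listed, had no probe set with 1 symbol, and probe sets with several symbols were not read for this list. These values therefore do not show how much globin RNA was present.

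Of 9 tested genes for heme breakdown, binding and transport outside the group, 2 rose and 0 fell over both treatments. They were Abcg2, an exporter of porphyrins among other compounds, by 0.37 (SE 0.0934, adjusted p = 0.0464, limma), and Pgrmc1, a heme-binding membrane protein, by 0.29 (SE 0.0653, adjusted p = 0.0292). In the main fit Cd163 differed by 0.97 and did not pass (adjusted p = 0.073, limma). It passed in 6 of 20 alternatives, among them quantile normalization (adjusted p = 0.0448, limma), the array set as covariate (0.0372) and array weights (0.00312). Of 6 tested genes of bilirubin disposal, 2 rose and 2 fell over both treatments. Ugt1a1 and Gsta1, also on this list, had no probe set with 1 symbol and were not tested. Gsta2, a glutathione transferase that binds heme and bilirubin, was 6.06-fold higher (log2 difference 2.60, SE 0.278, adjusted p = 0.000455), though near-identical family members could share its probes. Abcc3, which exports bilirubin conjugates to blood, was 2.36-fold higher (1.24, SE 0.209, adjusted p = 0.00701). The anion uptake transporters Slco1a4 and Slco1a1 fell by 1.20 (adjusted p = 0.0493) and by 0.79 (adjusted p = 0.00518) on the log2 scale. Gsta2 and Slco1a1 were called with saline as well, at 2.06 (adjusted p = 0.0432) and -0.93 (adjusted p = 0.0401), and Gsta2 after APAP, at 3.15 (adjusted p = 0.00424).

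Of 4 tested genes for iron storage and export outside the group, 0 passed, and the largest differences were 0.16 for Ncoa4, the receptor that sends ferritin to lysosomes, and -0.11 for ceruloplasmin (Cp). Of 7 tested iron uptake genes, 0 passed. Lcn2, which binds siderophores and belongs to the acute phase list too, differed by 2.01 at an adjusted p of 0.521, with single livers from 3.88 to 12.96, and Slc39a8 differed by -0.34. The 2 iron-sensing genes tested, Ireb2 and Aco1, differed by 0.16 and 0.04 and did not pass. Among 19 tested genes of hepcidin and its control outside the group, Hfe, the gene mutated in hereditary hemochromatosis, rose by 0.76 (SE 0.154, 1.69-fold, adjusted p = 0.0179, limma) and 0 fell. Il6ra differed by 0.59 (adjusted p = 0.33).

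Of 10 tested mitochondrial iron and iron-sulfur cluster genes, 0 rose and 1 fell. Abcb10, an inner membrane transporter needed for heme synthesis in mouse red cell precursors, fell by 0.97 on the log2 scale (SE 0.148, adjusted p = 0.00437, limma) and was called with saline too (-1.25, adjusted p = 0.0208). The mean of its probe sets gave a smaller difference of -0.48 over both treatments. Of 10 tested regulators that bind or answer to heme, 0 rose and 1 fell: Nfe2l2, the gene of NRF2, fell by 0.76 (SE 0.114, adjusted p = 0.00418) and was called after APAP (-0.83, adjusted p = 0.0429). Its level averaged 6.74 ± 0.184 in livers labelled liver-null and 7.50 ± 0.263 in wild-type livers (SD, n = 6 each). Bach1, the heme-binding repressor of Hmox1, differed by 0.34 and did not pass (adjusted p = 0.591).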

How the data were processed

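Liver RNA of 12 mice was measured on 1 Affymetrix array each. The values deposited by the authors are on the log2 scale, 1 for each probe set, and come from RMA, per the submitters' processing notes; no source used here states its settings. Gene symbols came from the platform annotation, 20351 of 20380 probe sets with 1 symbol matching a RefSeq entry; 691 probe sets had several symbols and 1555 none. A gene was represented by its brightest probe set with 1 symbol and tested where 3 or more arrays put it above their own 40th percentile. The test was limma (version 3.58.1, under R 4.3.3; 4 group means, eBayes, Benjamini-Hochberg over 8469 genes, threshold 0.05, two-sided), and the fit was tested on simulated data. Groups came from the sample titles. Every title names mouse 8 and ends in a number of its own; taking that ending as the mouse number, so that each array is a separate mouse, is an assumption, based on the series design, which calls the replicates biological. The number of arrays, 3 a group, limits the precision. Array sets are a split of the values, not a labelled batch.

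All 10 members were named with every probe set. From each pathway list, up to 4 called genes a direction and comparison were named, or, where the saline and APAP genotype comparisons called none, also the 2 with the largest difference over both treatments; for each member, the 3 tested genes of highest correlation; and Txnrd1. Nfe2l2 and Abcb10 fall under this rule, while Bach1, Hamp2, Cbr3 and Nqo1 levels and single marker genes were added after their values were seen. The members and lists were chosen with earlier results of these data known. Alternatives were no filter, the mean of a gene's probe sets, single probe sets, quantile normalization, the array set as covariate, only the arrays compared, array weights, a trended and robust spread and each array left out; the first array set alone was added after seeing the data.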

Additional observations from a re-analysis of the deposited data

How the results depend on the processing

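Slc48a1 and Blvrb stayed higher over both treatments at adjusted p under 0.05 in all 20 alternatives run, with log2 differences of 2.06 to 2.58 and 0.952 to 1.31, and Slc48a1 after APAP in all 15. Fth1 stayed higher but kept its call over both treatments in 11 of 20. No paired analysis was possible because no replicate number is shared between groups. Of the 9 members with saline, 1 was called as reported and 0 with only the arrays compared. With single probe sets 0 were called by their main probe set, while the second Slc48a1 probe set passed (log2 difference 2.225, adjusted p = 0.0153, limma). The count was 2 with the array set as covariate, 3 with a trended and robust spread and 4 with array weights. After APAP the count was 2 as reported and 1 with only the arrays compared or the first array set alone. Fth1 passed as well after APAP with the trended and robust spread (adjusted p = 0.03005, limma). Over both treatments the count was 3 as reported and 5 with array weights, where Alas1 and Slc40a1 passed too. Leaving out 1 array gave 0 to 1, 1 to 2 and 2 to 3 members. Over all genes with saline, the 54 calls became 104 with quantile normalization, 243 with the covariate, 19 with only the arrays compared, 1323 with array weights, 121 with the trended spread and 117 in the first array set. After APAP the 65 became 185 with the covariate, 39 with only the arrays compared, 210 with array weights and 98 with the trended spread, and over both treatments the 378 became 590 with quantile normalization, 882 with the covariate and 1409 with array weights. Without 1 array these counts were 10 to 92, 21 to 59 and 208 to 416. The first array set gave 1 call for APAP in livers labelled liver-null, and leaving out 1 array gave 0 to 1 over both genotypes.

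Signs turned only for values that were not called. With array weights the log2 difference was 0.0363 for Blvra, 0.29 for Alas1 and 0.193 for Tfrc with saline, and 0.0873 for Alas1 with APAP in wild-type livers. With the same weights, Slc48a1 and Blvrb differed by -0.0215 and -0.111 with APAP in livers labelled liver-null. Blvra with saline was 0.00996 after quantile normalization, and Tfrc over both treatments -0.00113 as the mean of its probe sets. In the first array set Blvra was 0.0382 with saline, Tfrc and Aco1 -0.0889 and -0.0158 over both treatments, and Alas1 0.00696 with APAP in wild-type livers. Leaving out 1 array with saline gave -0.125 to 0.12 for Blvra, -0.267 to 0.125 for Alas1, -0.379 to 0.176 for Tfrc and -0.0855 to 0.129 for Hamp. After APAP it gave -0.314 to 1.69 for Hmox1, -0.219 to 0.0335 for Blvra and -0.0434 to 0.178 for Hamp. Over both treatments it gave -0.125 to 0.0197 for Blvra, -0.0685 to 0.25 for Tfrc, -0.00568 to 0.116 for Hamp and -0.066 to 0.118 for Aco1. For APAP it gave -0.107 to 0.0900 for Blvrb in livers labelled liver-null, -0.252 to 0.0678 for Slc48a1 over both genotypes and -2.08 to 0.11 for the Hmox1 interaction. The cause was not tested. Over both treatments, calls of other genes held without each single array in 11 of 12 fits for Hfe, 4 for Pgrmc1, 2 for Slco1a4 and 1 for Abcg2, and in 12 for Gsta2, Abcc3, Slco1a1, Abcb10 and Nfe2l2. In the single-treatment comparisons, calls held without 1 array in 1 of 6 fits for Gsta2 and Slco1a1 and 2 of 6 for Abcb10 with saline, and in 1 of 6 for Nfe2l2 after APAP.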
